A study of Mus musculus with 180 samples.

Results

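AC-480 and Neratinib are kinase inhibitors directed at the ERBB family of receptor tyrosine kinases, and both were used here on mouse macrophages at concentrations in the low nanomolar range. Members were chosen by their treatment labels, which gave 3 samples of AC-480 and 3 of Neratinib, or 6 of the 180 samples in the series. The 6 samples with the vehicle DMSO served as the reference, and the labels divide them into 2 sets of 3 without saying which clinical kinase inhibitors (CKIs) belong to which set. In all 12 samples, bone marrow-derived macrophages (BMDMs) of wild type C57/BL6 male mice were pre-treated for 1 h with an inhibitor or DMSO, and LPS was then added at 10 ng/ml for 2 h. Untreated or unstimulated cells were not analysed here, so each difference below is one between LPS-stimulated macrophages. Each inhibitor was given at a concentration chosen for its binding to an intended target, which was EGFR for AC-480 and the kinase MAP4K5 for Neratinib. The concentration of AC-480 was the lower of the pair. Their values are therefore set side by side, and 0 tests were made between them.

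The ERBB family has 4 receptors, EGFR (ERBB1), ERBB2, ERBB3 and ERBB4, which form pairs when a ligand of the EGF or neuregulin type binds. Active receptors recruit the adaptors GRB2 and SHC1 and switch on the RAS-ERK and PI3K-AKT pathways, which change the activity of immediate-early and FOXO-regulated genes. ERBB2 binds no ligand of its own, and ERBB3 has very little kinase activity. Neratinib blocks EGFR, ERBB2 and ERBB4 irreversibly through a covalent bond. MAP4K5 belongs to a family of kinases that act upstream of the stress-activated MAP kinases. LPS acts through TLR4 and induces inflammatory genes through NF-kB and MAP kinases, and it induces interferon-beta, which in turn drives interferon-stimulated genes.

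The receptors that these inhibitors are directed at had very low values in these macrophages. *Egfr* (mm10 chromosome 11, 16752203 to 16913907) had normalized values of 8, 7 and 6 in DMSO set 1 and 5, 7 and 4 in DMSO set 2. It had 7, 6 and 4 with AC-480 and 4, 5 and 10 with Neratinib. All groups overlapped, and *Egfr* stayed below the filter of a mean of 10 that a gene had to pass to be tested. *Erbb2* lay between 0 and 3 in the 12 samples, and *Erbb4* was listed at 0 in all of them.

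*Erbb3* (chromosome 10, 128567523 to 128589635) was the only receptor of the 4 that passed the filter. Its values were 21, 19 and 24 in DMSO set 1, 31, 35 and 37 in DMSO set 2, 37, 32 and 30 with AC-480, and 23, 11 and 22 with Neratinib. The Neratinib samples lay low but overlapped with DMSO set 1, and all samples of DMSO set 2 lay above all samples of set 1. The log2 fold change of *Erbb3* was -0.58 with Neratinib (95% interval -1.08 to -0.07) and 0.27 with AC-480 (95% interval -0.23 to 0.78), and neither was called. Both values depended on the DMSO set: for Neratinib *Erbb3* was at -0.24 against set 1 alone and -0.91 against set 2 alone, and for AC-480 the direction turned, from 0.61 against set 1 to -0.06 against set 2.

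Of the 11 ERBB ligands, only *Hbegf*, heparin-binding EGF-like growth factor, passed the filter. It had values of 17, 5 and 10 in DMSO set 1, 14, 3 and 13 in DMSO set 2, 20, 11 and 14 with AC-480, and 15, 20 and 12 with Neratinib. The groups overlapped, and the log2 fold changes were 0.64 with AC-480 (SE 0.43) and 0.71 with Neratinib (95% interval -0.15 to 1.57), neither of them called. Amphiregulin (*Areg*) reached at most 17, and 3 ligand genes (*Tgfa*, *Epgn* and *Nrg3*) were listed at 0 in all 12 samples.

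The genes around the receptors were well detected. Per kb of transcript, *Adam17*, the protease that releases several ERBB ligands, had normalized values between 628 and 882, whereas *Egfr* had between 0.621 and 1.55. *Adam17* overlaps another gene (*Iah1*) and is uncertain. *Csf1r*, the receptor for the growth factor on which macrophages depend, had between 6060 and 6840 per kb. *Map4k5*, the intended target of Neratinib, was near the filter, with values of 11, 6 and 3 in DMSO set 1, 14, 13 and 15 in DMSO set 2, 14, 6 and 15 with AC-480, and 12, 12 and 8 with Neratinib. Its log2 fold change with Neratinib was 0.17, with a 95% interval from -0.69 to 1.04. These values are of RNA only and say nothing of how much of either kinase the inhibitors bound.

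**Figure D1:**
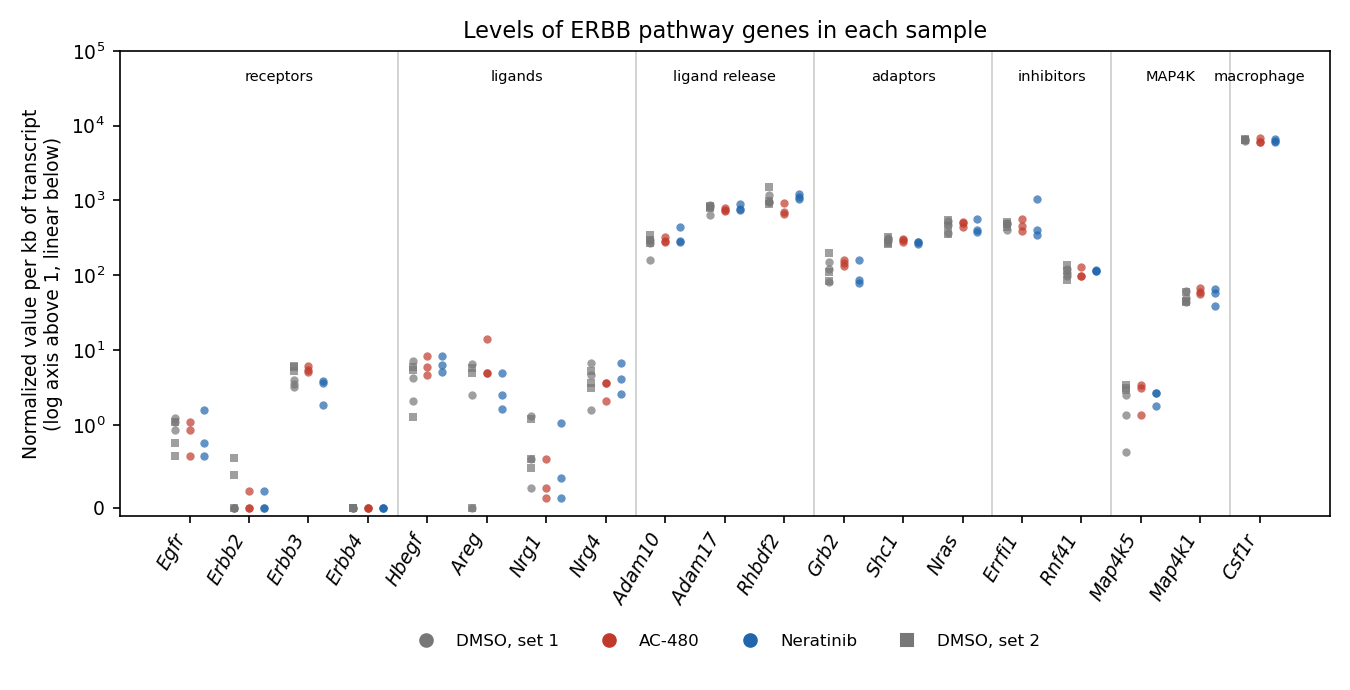
Normalized value per kb of transcript (vertical axis, logarithmic above 1 and linear below) of ERBB pathway genes, MAP4K genes and *Csf1r* in the 6 DMSO, 3 AC-480 and 3 Neratinib samples, with 1 point for each sample. The receptors *Egfr*, *Erbb2* and *Erbb4* lie at or below 1.55 per kb, and *Csf1r* lies between 6060 and 6840.

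The expression of each gene was compared by limma, a linear model with a moderated variance, on log2(normalized value + 1), and a gene was called at a Benjamini-Hochberg adjusted p under 0.05 over the 12714 genes tested. AC-480 gave 0 calls (0% of the genes), Neratinib 0 calls (0%), and both inhibitors together, taken as the mean of their group means, 0 calls (0%). At an unadjusted p under 0.05, 978 genes were higher (7.69%) and 479 lower (3.77%) with AC-480. With Neratinib 253 were higher (1.99%) and 55 lower (0.433%), and with both together 340 were higher (2.67%) and 50 lower (0.393%). If no gene differed, a share of about 0.05 of the genes would be expected under this cut. The shares with Neratinib and with both inhibitors lay below it, so their split by direction was not read as a response. The share with AC-480 lay above it, but genes are not independent and this was not tested. The direction depended on the scaling: when the samples were scaled again by the median of ratios, higher genes made up 39.3% of those at an unadjusted p under 0.05 with AC-480, against 67.1% as deposited, 60.8% against 82.1% with Neratinib and 53.9% against 87.2% with both. Neratinib had the smallest number of genes at an unadjusted p under 0.05 among the 58 CKIs (308 genes), while AC-480 was in position 27 from the lowest (1457 genes). The split also depended on single libraries: with Neratinib it turned to 52 higher and 96 lower (35.1% higher) without its replicate 3, it was 55.6% higher without replicate 3 of DMSO set 1 and 56.8% against DMSO set 2 alone, and with AC-480 it was 53.9% without its replicate 2 and 56.8% without replicate 3 of DMSO set 1. The numbers of genes depended on them as well. For Neratinib the number was 1282 without its replicate 1, 148 without its replicate 3, 160 without replicate 3 of DMSO set 1 and 741 without replicate 2 of DMSO set 2. It was 646 against DMSO set 1 alone, 118 against set 2 alone and 80 when the fit held just the DMSO, AC-480 and Neratinib samples, so the position of Neratinib among the CKIs holds for the fit with all samples and was not computed for the others. For AC-480 it was 813 without its replicate 3 and 881 without replicate 2 of DMSO set 2, and for both inhibitors, which gave 390, it was 672 without replicate 1 of DMSO set 2.

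The size of difference that these data allow was limited for most genes. The 95% interval of the log2 fold change lay wholly between -1 and 1 for 10357 genes with AC-480 (81.5%), for 11337 with Neratinib (89.2%) and for 12095 with both (95.1%). The median half-width of that interval was 0.43 for each inhibitor alone and 0.351 for both. A 2-fold difference was thus outside the interval for most genes. The median log2 fold change over all genes tested was 0.09 with AC-480 and 0.04 with Neratinib, and it was 0.01 and 0.00 after scaling again by the median of ratios. The spread within groups differed, with a median SD on the log2 scale of 0.216 among the 3 AC-480 samples, 0.339 among the 3 Neratinib samples and 0.331 among the 6 DMSO samples.

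Replicate numbers carried shared deviations in AC-480 and DMSO samples, as described with the processing, and the fit was repeated with the replicate number as a block. With the block, 26 genes were called for AC-480 (0.204%), of which 18 were higher and 8 lower, at adjusted p-values from 0.0369 to 0.0476. For Neratinib 0 genes (0%) and for both inhibitors 0 genes (0%) were called with the block, and 497 and 616 had an unadjusted p under 0.05. Both numbers lay below a share of 0.05 of the genes tested. The same 26 genes had adjusted p-values from 0.138 to 0.242 without the block. In 20 of the 26, all AC-480 samples lay beyond all 6 DMSO samples. Over all genes tested the share was 3.73% above and 1.28% below. The 26 genes were called from these same samples, so their separation follows largely from the call and adds no support to it. The calls depended on single libraries: with the block, 0 genes were called when any 1 of the 3 AC-480 samples was left out, without replicate 2 of DMSO set 1 or without replicate 2 of DMSO set 2. Without replicate 1 or 3 of DMSO set 1 there were 42 and 12 calls, and without replicate 1 or 3 of DMSO set 2 there were 172 and 90. With only DMSO set 1 or only DMSO set 2 as the reference there were 0 calls with the block, although all 26 genes kept their sign against either set. Scaling again by the median of ratios gave 30 calls with the block and turned the split from 18 higher and 8 lower to 10 higher and 20 lower, with 17 of the 26 genes among them.

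Among the genes with lower values with AC-480, *Irf8*, a transcription factor of the monocyte and macrophage lineage (chromosome 8, 120736358 to 120756694), had values of 3944, 5289 and 5012 in DMSO set 1, 3786, 7541 and 3680 in DMSO set 2, 1718, 2326 and 1835 with AC-480, and 4476, 3892 and 7276 with Neratinib. All AC-480 samples lay below all DMSO samples, and the Neratinib samples lay among them. Replicate 2 was the highest of its 3 in both DMSO sets and with AC-480, as it was in *Stat5a*, *Nos2* and *Cmpk2*. The log2 fold change with AC-480 was -1.28 (SE 0.31), with an adjusted p of 0.138 and of 0.0381 with the replicate block in limma. The fold change with Neratinib was 0.09 on the same scale, with a 95% interval from -0.52 to 0.70.

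*Il4ra*, the alpha chain of the receptors for IL-4 and IL-13 (chromosome 7, 125552271 to 125579474), showed the same arrangement. It had 10516, 11680 and 7838 in DMSO set 1, 9741, 11198 and 7673 in DMSO set 2, 4996, 5694 and 4451 with AC-480, and 11549, 8958 and 10527 with Neratinib. The AC-480 samples were below every DMSO sample, by a log2 fold change of -0.94 (SE 0.25), with adjusted p-values of 0.138 without the block and 0.0378 with it in limma. *Akt2*, a kinase of the PI3K pathway, was lower by less, at 739, 835 and 735 with AC-480 against a range of 892 to 1247 in DMSO (log2 fold change -0.40, SE 0.09). Its adjusted p was 0.138 without the block and 0.0369 with it in limma.

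Next to these, *Stat5a*, a transcription factor activated by many cytokine receptors, had values of 1995, 2993 and 1843 in DMSO set 1, 1909, 3857 and 1706 in DMSO set 2, 924, 1376 and 1063 with AC-480, and 2602, 2402 and 2377 with Neratinib. Its log2 fold change with AC-480 was -1.04 (SE 0.27), with an adjusted p of 0.138 without the block and 0.0583 with it in limma, so it was called in neither fit. *Cish*, a member of the SOCS family that restrains STAT5 signalling, had 1420, 1526 and 1322 with AC-480 against 1993 to 2571 in DMSO, and its log2 fold change was -0.69. Neither gene differed by as much with Neratinib, whose log2 fold changes were 0.11 for *Stat5a* and 0.04 for *Cish*. The other genes of smallest p whose AC-480 samples all lay below DMSO were *Pakap* (-1.12), which encodes an anchoring protein of protein kinase A, *Stard7* (-0.89), a lipid transfer protein, *Dram1* (-0.82), an autophagy regulator, *Nectin2* (-0.89), an adhesion molecule, and *Sertad2* (-0.42), a transcriptional co-regulator. *Pakap* and *Sertad2* were among the 26 genes called with the block. *Dram1* overlaps another gene (*Gm51779*) and is uncertain.

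Among the genes with higher values, *Zfp948*, a zinc finger gene (chromosome 17, 21566978 to 21588699), had the smallest p. It had 52, 32 and 71 in DMSO set 1, 42, 22 and 51 in DMSO set 2, 101, 96 and 135 with AC-480, and 53, 32 and 38 with Neratinib. All AC-480 samples lay above all DMSO samples (log2 fold change 1.35, SE 0.30), with adjusted p-values of 0.138 without the block and 0.0369 with it in limma. It was also the only gene called for AC-480 without the block when replicate 3 of DMSO set 1 was left out, and it is named here after its values were seen. *Nr1d1*, which encodes the circadian repressor REV-ERB alpha, had 20, 6 and 21 in DMSO set 1, 32, 9 and 18 in DMSO set 2, 71, 43 and 44 with AC-480, and 27, 27 and 12 with Neratinib. Its log2 fold change with AC-480 was 1.66 (SE 0.41), and its reads cannot be told apart from those of the overlapping gene *Thra*, since the library protocol keeps no strand. *Arhgap25*, a GTPase-activating protein of RAC in phagocytes, had 127 to 191 with AC-480 against 34 to 124 in DMSO (log2 fold change 1.27), and it stands outside the naming rule.

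The remaining higher genes of smallest p with no overlap were *Jkamp* (0.50), *Clk4* (0.81), a kinase of splicing factors, *Fbxo45* (1.16), *Fahd1* (1.14), a mitochondrial oxaloacetate decarboxylase, *Cln8* (0.89), *Pacc1* (0.66), an acid-activated chloride channel, *Mad2l1* (0.46), a protein of the spindle checkpoint, and *Utp15* (0.47), which acts in ribosome production. All 8 were among the 26 called with the block. The other called genes were *Bhlhe41* (1.62), *Ccdc115* (0.43), *Frat1* (2.24), *Gmnn* (0.65), *Jmjd1c* (1.19), *Prmt1* (0.44) and *Tinf2* (0.49) among the higher ones, and *Eif4e3* (-0.45), *Gprc5c* (-0.55) and *Mtmr14* (-0.68) among the lower ones, all given as log2 fold changes with AC-480 and outside the naming rule. *Frat1* rests on very few reads, with 7 to 17 with AC-480 and 0 to 9 in DMSO. At an unadjusted p under 0.05, Neratinib gave 0 of these 26. Over all genes tested, the 3 AC-480 samples lay above all 6 DMSO samples for 474 genes (3.73%) and below them for 163 (1.28%).

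**Figure D2:**
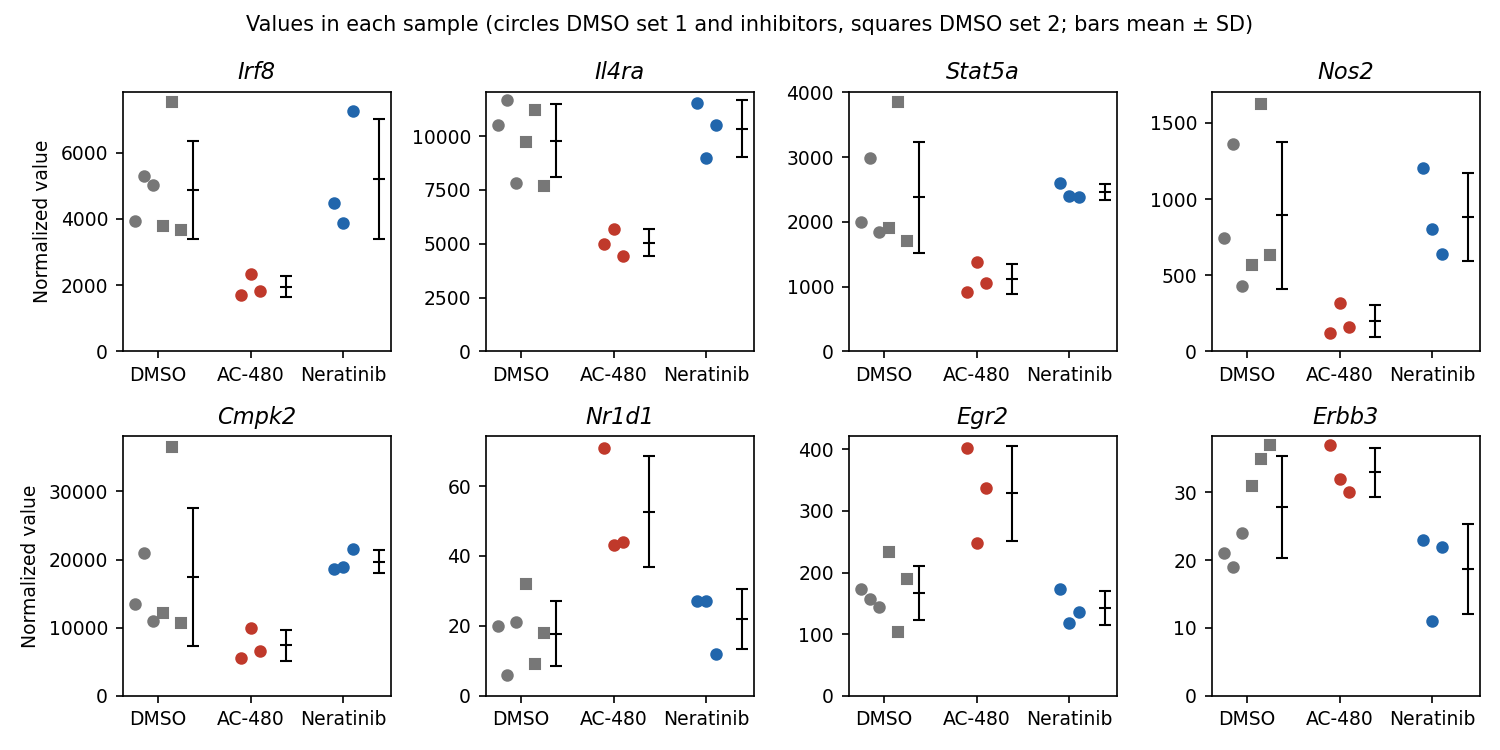
Normalized values (vertical axes, from 0) of 8 genes in each DMSO, AC-480 and Neratinib sample, with the mean and SD of each group beside the points. In *Irf8*, *Il4ra*, *Stat5a*, *Nos2* and *Cmpk2* the 3 AC-480 samples lie below all 6 DMSO samples, in *Nr1d1* and *Egr2* above them, and in *Erbb3* they overlap.

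**Figure D3:**
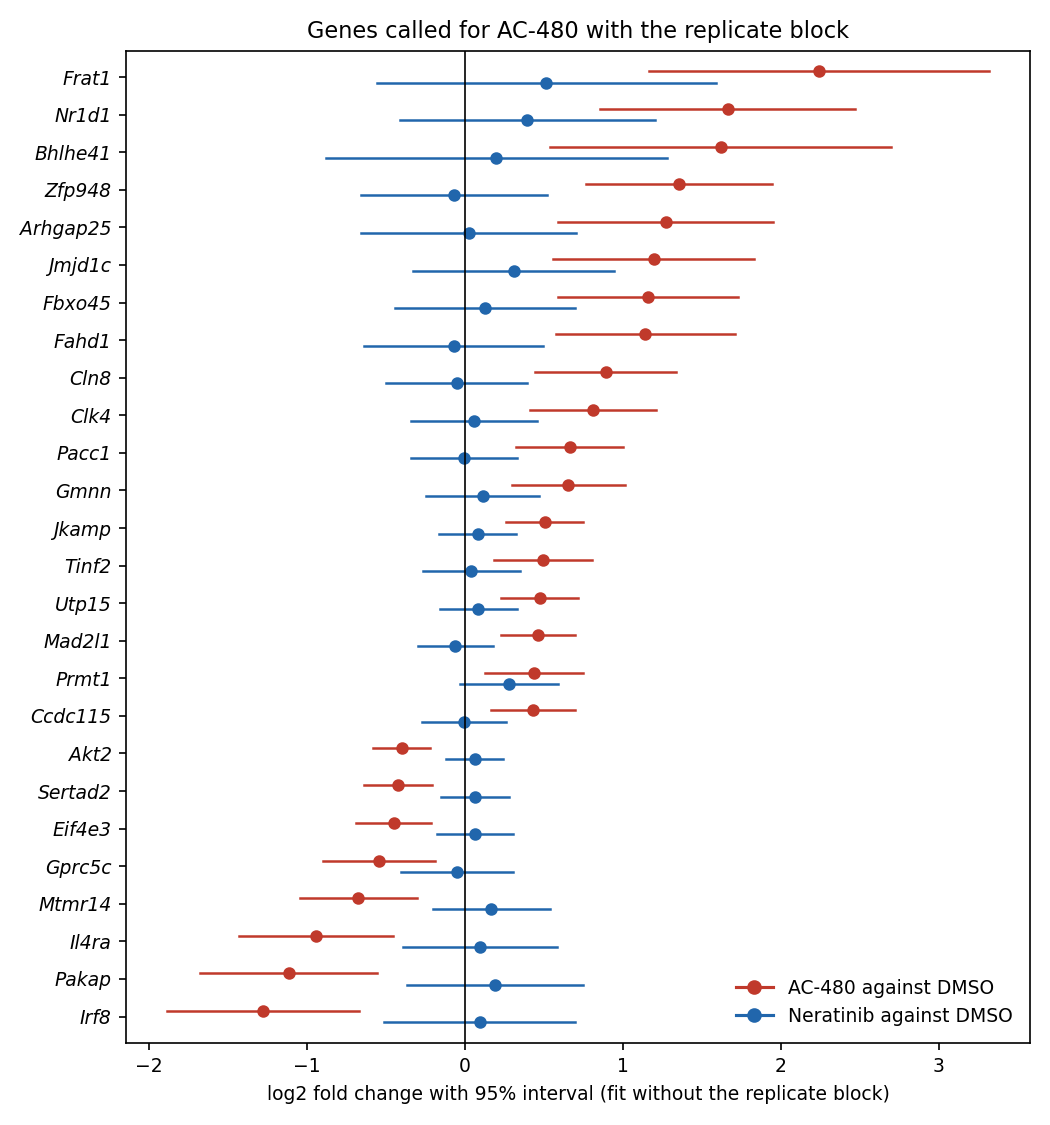
Log2 fold changes against DMSO (horizontal axis) with 95% intervals from the fit without the block, for the 26 genes called for AC-480 with the replicate block. The AC-480 values run from -1.28 for *Irf8* to 2.24 for *Frat1*, and the Neratinib intervals include 0 for all 26 genes.

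The genes downstream of ERBB signalling were examined as lists, and 0 members of any list were called in any comparison, with or without the replicate block. Counts over list members are read against the shares over all genes given above, and they carry no test. With the replicate block, at an unadjusted p under 0.05, 11.0% of all genes were higher and 5.69% lower with AC-480. Of 13 adaptors and effectors tested among 14, 0 had an unadjusted p under 0.05 with either inhibitor without the block, and 2 were higher with AC-480 with it (*Eps8*, a signalling adaptor, 0.47, and *Gab2*, a docking protein, 0.34 on the log2 scale). The median log2 fold change was 0.07 with AC-480 and 0.06 with Neratinib. The feedback inhibitors of the receptors gave 0 of 7 tested among 9, with and without the block. *Errfi1*, which binds and restrains EGFR, had 1864, 1530 and 1308 with AC-480 and 1354, 1163 and 3513 with Neratinib, against 1338 to 1699 in DMSO, so that a single Neratinib sample stood above all others. Among genes that release ligands, *Rhbdf2*, a cofactor of ADAM17, was lower with AC-480 (log2 fold change -0.50, 95% interval -0.80 to -0.20), with an adjusted p of 0.18, or 0.0826 with the block, in limma and overlapping samples. Of 6 MAP4K genes tested among 7, *Map4k3* had an unadjusted p under 0.05 and was higher with AC-480 (log2 fold change 0.54), and with the block *Map4k1* (0.28) was the other such gene.

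Immediate-early and feedback genes of the ERK pathway leaned higher with AC-480. At an unadjusted p under 0.05, 7 of 23 tested were higher and 0 lower (9 and 0 with the block), and the median log2 fold change was 0.44, against 0.09 over all genes. *Egr2*, an immediate-early transcription factor, had 173, 157 and 144 in DMSO set 1, 233, 104 and 189 in DMSO set 2, 402, 248 and 337 with AC-480, and 173, 118 and 136 with Neratinib. Its AC-480 samples lay above all DMSO samples, with a log2 fold change of 0.99 (95% interval 0.34 to 1.64) and an adjusted p of 0.201, or 0.0924 with the block, in limma. *Dusp4*, a phosphatase that switches off MAP kinases, had 944, 858 and 544 with AC-480, above the DMSO range of 235 to 452, and 213, 535 and 620 with Neratinib. The adjusted p of *Dusp4* with AC-480 was 0.219, or 0.0924 with the block, in limma. The log2 fold changes with AC-480 were 1.13 for *Fosl1*, 0.79 for *Dusp6*, 0.76 for *Myc*, 0.53 for *Ier2* and 0.45 for *Ier3*. With Neratinib 0 of 23 had an unadjusted p under 0.05, and the median was 0.12. After scaling again by the median of ratios the count with AC-480 was 5 higher and 0 lower, and the median 0.36.

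FOXO-linked genes, which PI3K-AKT signalling holds down, gave 4 higher and 1 lower of 12 tested with AC-480 (4 and 2 with the block). *Irs2* (1.09), an adaptor of the insulin receptor, *Foxo3* (0.91), *Bcl6* (0.90) and *Txnip* (0.49) had the higher values on the log2 scale, and *Pik3ip1* (-0.70) the lower one. The list median was 0.38 with AC-480 and 0.09 with Neratinib, which had 0 of 12 at an unadjusted p under 0.05. *Txnip* overlaps another gene (*Gm15441*) and is uncertain for the same reason as *Nr1d1*.

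Inflammatory genes induced by LPS divided with AC-480. At an unadjusted p under 0.05, 11 of 36 tested were lower and 3 higher (13 and 3 with the block), while the list median was 0.00. After scaling again by the median of ratios the counts were 12 lower and 1 higher and the median -0.08, and with the mitochondrial share as a covariate they were 12 and 3 and the median -0.15. *Nos2*, the inducible nitric oxide synthase (chromosome 11, 78920787 to 78960226), had values of 745, 1360 and 432 in DMSO set 1, 567, 1626 and 633 in DMSO set 2, 121, 317 and 162 with AC-480, and 1203, 802 and 639 with Neratinib. Its AC-480 samples lay below all DMSO samples, with a log2 fold change of -2.11 (95% interval -3.46 to -0.76), but it varied widely among the DMSO samples and the adjusted p was 0.187, or 0.104 with the block, in limma. Lower values were also seen in *Il27* (-0.99), *Ptgs2* (-0.73) and *Ptges* (-0.71), of which *Ptgs2* and *Ptges* encode enzymes of prostaglandin synthesis. They were joined by the NF-kB subunits and inhibitors *Relb* (-0.52), *Nfkb2* (-0.45), *Tnfaip3* (-0.45), *Nfkbie* (-0.24) and *Nfkbia* (-0.21), by *Sod2* (-0.34), the mitochondrial superoxide dismutase, and by the adhesion molecule *Icam1* (-0.33). The chemokine genes *Ccl7* (0.70), *Cxcl1* (0.40) and *Ccl2* (0.26) were the 3 with higher values. *Tnf* and *Il6*, cytokine genes of the same list, had log2 fold changes of -0.11 (95% interval -0.72 to 0.50) and -0.34 (95% interval -1.20 to 0.52).

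Interferon-stimulated genes leaned lower with AC-480, with 7 of 46 lower and 1 higher at an unadjusted p under 0.05 and a median log2 fold change of -0.20. The counts were 8 and 1 with the block, and 11 and 1 with a median of -0.32 with the mitochondrial share as a covariate. The size of the lean depended on the DMSO set. Against set 1 alone 5 were lower and 1 higher, with a median of -0.10. Against set 2 alone they were 7 and 1, with a median of -0.30. Against both sets together, 34 of the 46 log2 fold changes were below 0 and 12 above. The 1 gene that was higher at an unadjusted p under 0.05 was that of the inducing cytokine itself. *Ifnb1* had 129, 99 and 75 in DMSO set 1, 262, 79 and 86 in DMSO set 2, 241, 179 and 291 with AC-480, and 173, 100 and 67 with Neratinib. A single DMSO sample fell within the AC-480 range, the log2 fold change was 1.08 (95% interval 0.29 to 1.87) and the adjusted p 0.256, or 0.113 with the block, in limma. *Cmpk2*, a nucleotide kinase of the antiviral response, had 13457, 20974 and 10956 in DMSO set 1, 12160, 36530 and 10614 in DMSO set 2, and 5577, 10000 and 6546 with AC-480. Its AC-480 samples lay below all DMSO samples (log2 fold change -1.13, 95% interval -1.89 to -0.36, adjusted p 0.21, or 0.12 with the block, in limma), whereas its 18532, 18867 and 21607 with Neratinib lay within the DMSO range. *Irf1* (-0.60) and *Usp18* (-0.67) had the same arrangement with AC-480, and *Stat2* (-0.77), *Ifih1* (-0.77) and *Gbp5* (-0.71) had lower values with some overlap. *Il27*, *Nfkb2*, *Stat2*, *Usp18* and *Fosl1* each overlap another gene and are uncertain.

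**Figure D4:**
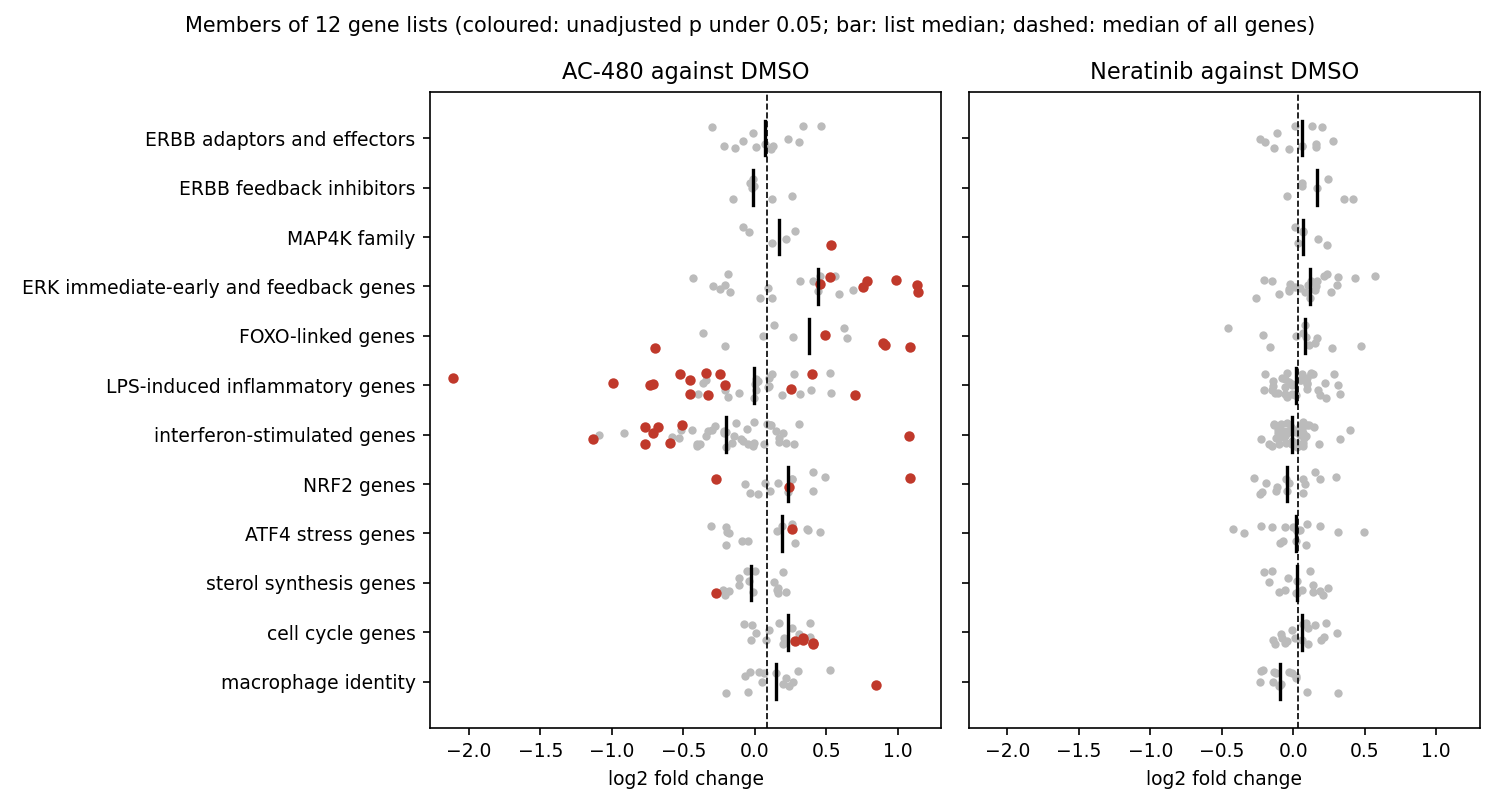
Log2 fold changes against DMSO (horizontal axes) of the tested members of 12 gene lists, with AC-480 on the left and Neratinib on the right. Coloured points have an unadjusted p under 0.05, black bars are list medians and the dashed line is the median of all genes. With Neratinib 0 points of these 12 lists are coloured, and with AC-480 the ERK list has 7 on the higher side and the interferon list 7 on the lower side.

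Cell cycle genes leaned higher with AC-480, with a median of 0.24 and 5 higher of 18 (*Aurka*, *Pcna*, *Ccnb1*, *Tyms* and *Cdk1*, with log2 fold changes from 0.28 to 0.41, 7 with the block, 3 after scaling again and 1 against DMSO set 1 alone). The antioxidant genes regulated by NRF2 gave 2 higher and 1 lower of 15 (3 and 1 with the block), the stress genes regulated by ATF4 1 higher of 17 (*Atf4* itself, 0.26, and 2 higher and 1 lower with the block) and the sterol synthesis genes 1 lower of 16 with and without the block (*Cyp51*, -0.27). In the NRF2 list, *Osgin1* had 51, 43 and 42 with AC-480, above the DMSO range of 12 to 40. With Neratinib 0 genes of these 4 lists had an unadjusted p under 0.05. Of all the lists, *Erbb3* was the only gene that reached an unadjusted p under 0.05 with Neratinib without the block. With the block, *Adam10* (0.29) of the ligand release list and 1 gene of the LPS list also did, both of them higher.

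Among the genes whose Neratinib samples all lay below the DMSO samples, which held for 28 genes (0.22%), *Ctdspl*, a phosphatase gene, had the smallest p. Its values were 25, 15 and 17 in DMSO set 1, 22, 12 and 22 in DMSO set 2, 26, 19 and 25 with AC-480, and 6, 10 and 8 with Neratinib. The log2 fold change was -1.12 (SE 0.28), with an adjusted p of 0.831 in limma. That was the smallest adjusted p of any gene with Neratinib in this fit. The genes named below are thus given as values and not as changes, and 0 of them were called in it. The next were *6430562O15Rik* (-1.01), *Srbd1* (-0.78), *Rnf220* (-0.77), a ubiquitin ligase, *Zfp821* (-0.74), *Gm51604* (-1.32), *Tmem25*, *Mettl21a* (-0.46), *Flt3l* (-0.60), a cytokine for dendritic cell precursors, and *Pfkfb4* (-0.31), a regulator of glycolysis. *6430562O15Rik* overlaps another gene (*Mrps27*) and is uncertain. For 35 genes (0.275%) the Neratinib samples all lay above the DMSO samples. Of these, *Smad5*, which carries BMP signals, had 110, 126 and 107 with Neratinib against 55 to 102 in DMSO (log2 fold change 0.56), and *Iqcb1*, a gene of the cilium, had 30, 40 and 41 against 19 to 26 (0.63). The others of smallest p were *Syne3* (0.36), *Cdc27* (0.37), *Zfp119a* (0.48), *Shtn1* (0.23), *Gm20768* (0.70), *Phf2* (0.58), *Mief1* (0.32) and *Krcc1* (0.27). When replicate 1 of Neratinib was left out, 2 genes were called by limma, *Sirt4* and *Gnb2*, which are named here after their values were seen. *Sirt4*, a mitochondrial sirtuin, had 7, 4 and 0 with Neratinib against 5 to 15 in DMSO, and *Gnb2*, a G protein subunit, had 523, 870 and 1566 against 555 to 988.

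Very few genes separated both inhibitors from DMSO. All 6 inhibitor samples lay above all 6 DMSO samples for 2 genes (0.0157%) and below them for 1 gene (0.00787%). *Iqcb1* had 30, 32 and 38 with AC-480 and 30, 40 and 41 with Neratinib. *Tada3*, a subunit of histone acetyltransferase complexes, had 200, 200 and 198 with AC-480 and 154, 170 and 168 with Neratinib against 142 to 153 in DMSO. *Ptcd1*, which acts on mitochondrial RNA and overlaps *Bud31*, had 230, 323 and 316 with AC-480 and 312, 293 and 299 with Neratinib against 326 to 391 in DMSO. Their log2 fold changes over both inhibitors were 0.56, 0.29 and -0.25. To set the inhibitors side by side with no DMSO sample in common, AC-480 was taken against DMSO set 1 and Neratinib against DMSO set 2. Across the 12714 genes Spearman's correlation was then -0.22, and with the sets exchanged it was -0.40. These are correlations across genes, which are not independent replicates, and the DMSO sets themselves deviated together by replicate number.

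The series holds other inhibitors that are directed at ERBB receptors, at other concentrations, and their values are given beside those of AC-480 without a comparison. The log2 fold change of *Irf8* was -0.73 with Afatinib, -1.12 with Lapatinib, -1.18 with Poziotinib and -0.85 with Mubritinib, next to -1.28 with AC-480 and 0.09 with Neratinib. For *Il4ra* it was -1.41, -0.55, -0.77 and -1.51, next to -0.94 and 0.09. For *Arhgap25* it was 1.15, 0.91, 0.95 and 1.26, next to 1.27 and 0.02. Other genes were divided among these inhibitors. For *Dusp4* it was -0.52, -0.14, 1.31 and 1.35, next to 1.14 and 0.26. For *Bcl6* it was -0.08, 0.82, 0.76 and 1.02, next to 0.90 and 0.15. Poziotinib had 0 called genes, so none of its values here was called. All of these comparisons use the same 6 DMSO samples. Among the genes named here, the value with AC-480 was the highest of all 58 CKIs for *Zfp948*, *Mad2l1*, *Fahd1* and *Fosl1* and the lowest for *Pakap* and *Dram1*. Other values were less extreme, with *Irf8* in position 16 from the lowest, where 17 CKIs had a called lower value, *Il4ra* in position 12 with 12 CKIs, *Sertad2* in position 23 with 24 CKIs and *Prmt1* in position 23 from the highest with 6 CKIs. Each of the 26 genes was called in the same direction for at least 1 other CKI. From the highest of 58, Neratinib was in position 57 for *Arhgap25* (0.02), 56 for *Bhlhe41* (0.20) and 52 for *Clk4* (0.05). For *Akt2* it was the highest, at 0.06. In these genes most CKIs thus shifted to the same side as AC-480, and the shift was not particular to AC-480. Whether it lies in the shared DMSO samples was not tested.

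The markers of macrophages were well detected. *Csf1r* lay between 23467 and 26501 in the 12 samples, and its log2 fold change was -0.03 with each inhibitor (95% interval -0.14 to 0.08). Over the 15 macrophage genes, 11 log2 fold changes were above 0 and 4 below with AC-480 (median 0.15), and 4 were above and 11 below with Neratinib (median -0.09). The summed values of 7 neutrophil markers lay between 266 and 931 in DMSO, 579 and 716 with AC-480, and 257 and 690 with Neratinib. All 6 neutrophil markers tested had a log2 fold change above 0 with AC-480 (0.25 to 0.72, median 0.48) and 1 of 6 with Neratinib (median -0.17), none of them with an unadjusted p under 0.05. With the mitochondrial share as a covariate the AC-480 median was 0.21. The sums of the T and NK cell, B cell, epithelial and erythroid markers stayed at or below 22 in every sample, with *Ncr1* at 0, and those of the dendritic cell and fibroblast markers at or below 147. The part of these cells in the results was not tested. In bulk samples, fewer cells of a type and less RNA per cell cannot be told apart. The totals of the normalized values were 9481416 to 11094387 in DMSO, 10103700 to 10599531 with AC-480 and 10185410 to 10836446 with Neratinib. Mitochondrial transcripts made up 0.759 to 1.94% in DMSO, 1.28 to 1.91% with AC-480 and 0.759 to 1.65% with Neratinib. With this share as a covariate and the replicate block, 25 genes were called for AC-480, of which 22 were among the 26, and without the block 0 were called for any comparison.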

How the data were processed

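BMDM RNA was amplified by SMART-seq2 from polyA transcripts and tagmented with Tn5. The authors mapped reads to mm10 with TopHat2 2.1.1, removed blacklisted regions with bedtools 2.29.2 and counted reads on RefSeq genes, as the methods and processing notes state. The deposited values are a score without a fixed unit, called normalized values here, which the authors made by scaling the counts on invariant genes and rounding them to whole numbers. The authors' own test was DESeq2 with its normalization switched off. Because the values are scaled, no count test was used here, and the read depth of each sample is unknown beyond the totals of the normalized values. The methods state 3 independent biological replicates, but not which animals they came from. The p-values measure the spread between samples within groups, pooled over the 59 groups of the fit and not taken from these 12 samples alone. No 2 of the 12 samples had identical values.

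limma 3.58.1 in R 4.3.3 was fitted with a variance trend to log2(normalized value + 1) of all 180 samples in 59 groups, over the 12714 of 45070 genes with a mean of at least 10. Fold changes on this scale understate changes of low genes. Intervals are 95% intervals of the moderated test. The fit was run on simulated data in which 200 genes were changed by known amounts. Those genes were drawn independently with the same spread in all groups, unlike these samples. The simulation therefore cannot give the error rate of the calls here. Python 3.11.15 with pandas 2.3.3, NumPy 2.4.6, SciPy 1.17.1 and matplotlib 3.10.9 made the summaries. Samples were grouped by label, and 0 value columns lacked a sample.

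Deviations from group means of same-numbered AC-480 and DMSO samples (the numbers are those in the labels) correlated at 0.24 to 0.55, above 0.1 in every pair, so blocked values stand beside AC-480 calls and list counts. For Neratinib the range was 0.05 to 0.76, so its numbers were not taken as pairs. Between AC-480 and Neratinib the correlations were 0.17, 0.07 and -0.29 for replicates 1, 2 and 3. Deviations of samples of unlike number were not compared. Between whole samples, Spearman's correlation of Neratinib replicate 3 was 0.9884 with replicate 2 of DMSO set 2. It was 0.9625 and 0.9759 with replicate 3 of DMSO sets 1 and 2. That of AC-480 replicate 3 was 0.9755 and 0.9822 with replicate 3 of sets 1 and 2, and 0.9785 with replicate 1 of set 1. The block was nevertheless fitted over all 180 samples, those of Neratinib included.

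Genes were named by list membership, or as the up to 10 per direction with the largest change among called genes whose inhibitor samples all lay beyond DMSO, filled by smallest p where fewer were called. The inhibitors, lists and rule were chosen with earlier results of these data known. Alternatives were other pseudocounts (0.5, 10), no filter, a filter at 50, another scaling, each DMSO set alone, no variance trend, only the groups compared, the replicate block, a log2 fold change of at least 1 and leaving out samples. The mitochondrial covariate and all alternatives with the block were added after seeing the data. Genes overlapping on opposite strands are uncertain, since SMART-seq2 keeps no strand. Some results on single genes are not reported here.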

Additional observations from a re-analysis of the deposited data

Results flagged for a closer look

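In 4 of 76 genes checked, 1 of the 6 DMSO samples stood apart from the other 5 by Dixon's test, which chance alone does in about 1 group of 20. *Cdc27* had 236 in replicate 3 of DMSO set 1, against 471 to 573 in the others, and *Ptgs2* had 1280 in the same sample, against 2786 to 3930. *Clk4* had 53 in replicate 2 of DMSO set 2, against 97 to 109, and *Mad2l1* had 346 in that sample, against 446 to 475.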

How the results depend on the processing

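Without a filter on low values 30850 genes were tested, and 107 were called for AC-480 and 71 for Neratinib, of which 92 and 70 had a mean under the filter of 10. The replicate block gave 26 calls for AC-480 and 0 for Neratinib and for both inhibitors. Leaving out 1 sample without the block gave 0 to 1 calls for AC-480, 0 to 2 for Neratinib and 0 for both. All other alternatives gave 0 calls. The 26 calls for AC-480 with the block became 137 without a filter, 39 with only the groups compared (6 of the 26 among them), 10 with a log2 fold change of at least 1, and 0 with DMSO set 1 or set 2 alone. They ranged from 0 to 172 when 1 sample was left out. Scaling again gave 30 calls, of which 17 were among the 26, and turned the split from 18 higher and 8 lower to 10 higher and 20 lower. The cause was not tested. Of 102 fold changes followed for named genes, 19 changed sign under some alternative, with 0 of them called. What depth limits could not be measured, since the read depth of each sample is unknown.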
